A study of Mus musculus with 5 samples.

Results

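Adenylate kinases move a phosphate group between ATP and AMP, which keeps the adenine nucleotides of a cell in balance and links ATP use to the AMP signal that AMP-activated protein kinase reads. The isoforms differ in where they work: AK1 and AK5 in the cytosol, AK3 and AK4 in the mitochondrial matrix, AK6 in the nucleus, and AK7 and AK8 in cilia and flagella. In beta cells, the ratio of ATP to ADP closes the potassium channel that starts insulin release, and adenylate kinase activity is known to act on that ratio near the channel. Described here are Ak1, Ak3, Ak4, Ak5 and Ak7, 5 genes measured by 6 of the 39429 probes on a mouse expression array; 4 of them are among the 25920 genes bright enough to be tested. They were taken by gene name from the array's own annotation, which still lists Ak4 as Ak3l1; this older name has been used for both Ak3 and Ak4, and the RefSeq accession of both such probes is that of Ak4. The gene set was chosen with the contrast between the 2 treatments already known, so fold changes of these 5 genes are given with their standard error as a description and without a test.

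The cells were MIN6, an insulin-secreting line from a mouse insulinoma. In the EXO-HP group (n = 3 arrays) they had been treated with exosomes, small extracellular vesicles, taken from the medium of ex vivo muscle whose donor mice had eaten a high fat diet. In the EXO-STD group (n = 2 arrays) the donor mice had eaten a standard diet, so both groups received muscle vesicles and no group received none. The labels give no vesicle dose, treatment time, mouse strain or age, and do not say whether cultures or vesicle preparations were separate, so the spread between arrays may be partly technical. All 12 beta cell markers, Ins1, Ins2 and Pdx1 among them, were well above background on every array.

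EXO-HP replicate 1 and both EXO-STD replicates lay on slide 1, and EXO-HP replicates 2 and 3 on slide 2. Detection differed between slides, with 74.0%, 91.6% and 81.6% of spots well above background on EXO-HP replicates 1 to 3, against 73.4% and 71.8% on EXO-STD replicates 1 and 2. Dim probes moved with this share: in the dimmest decile, the median difference from the EXO-STD mean was 0.23, 1.53 and 0.74 on the log2 scale on EXO-HP replicates 1 to 3. Over the 31945 probes tested, 0 (0%) passed an adjusted p of 0.05 in limma (the smallest was 0.814), and 1787 (5.59%) had one under 0.05 before adjustment. The number of arrays limits the precision.

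Each isoform was read by a probe of 60 bases, and a value speaks only for transcripts that hold those bases. The first 30 bases of each probe are shown, 5′ to 3′, because the Ak4 result turns on which of its probes is read. They are in lower case throughout, and no pair of the full probes shares a run longer than 7 bases.
Ak1 probe: gggccacctttccttctgcattgcctattt
Ak3 probe: accacttcctacaacctgttgtgaattacc
Ak4 probe at position 3925: gtgcttagttcagagtctgttctgtatctg
Ak4 probe at position 674: tatgtttacacacttttctccaacaagatc
Ak5 probe: tgactctttcctcaatgagtgagcaaacac
Ak7 probe: ctacttcgacgagcttgaaattcacccgat
On the mm9 build, per the array annotation, the Ak1 probe lies at chr2:32490509-32490568 on the plus strand and the Ak3 probe at chr19:29095429-29095488 on the minus strand. The Ak4 probes lie at chr4:101139464-101139523 and chr4:101136213-101136272, both on the plus strand, and begin at transcript positions 3925 and 674. The Ak5 probe lies at chr3:152125850-152125909 on the minus strand. The Ak7 probe covers chr12:107004924-107006761 on the plus strand, a stretch longer than the probe itself, so that it lies across at least 1 splice junction.

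**Figure D1:**
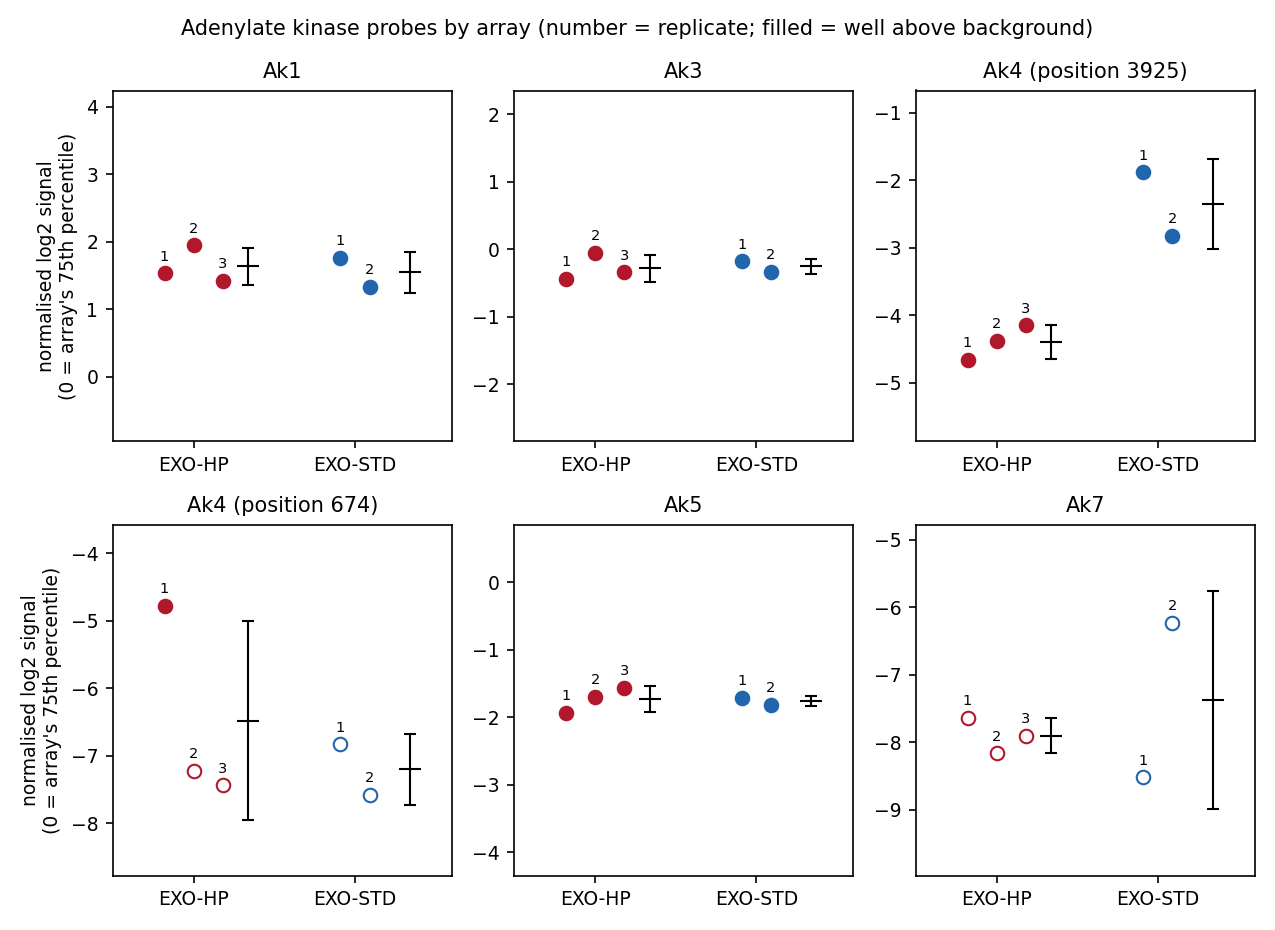
Normalised log2 signal (y axis, 0 is the 75th percentile of each array) of the 6 adenylate kinase probes on each array; points are single arrays numbered by replicate, EXO-HP left and EXO-STD right, filled where well above background, and black bars are group means ± SD. The Ak4 probe at position 3925 is the tested probe whose groups do not overlap, with EXO-HP between -4.66 and -4.15 and EXO-STD between -2.83 and -1.88.

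Ak1, Ak3, Ak4 and Ak5 transcripts were detected in MIN6 cells in both groups, while Ak7 was not well above background on any of the 5 arrays. Of the 4 detected isoforms, Ak4 had the lower signal in EXO-HP, by 4.12-fold, and the other 3 had group means within 0.10 of each other on the log2 scale. Levels of different probes cannot be ranked against each other, because probes differ in how brightly they bind the same amount of RNA. Which isoform was the most abundant is therefore not given by these arrays.

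Ak4 encodes a matrix enzyme that is known as a hypoxia-induced gene and has weaker kinase activity than its relatives. Its probe at position 3925 had processed signals of 66.8, 109 and 117 in EXO-HP replicates 1 to 3, against 522 and 324 in EXO-STD replicates 1 and 2. The scanner software put the error of these spots at 7.91, 11.5 and 12.1 in EXO-HP and at 52.4 and 33.3 in EXO-STD. All 5 spots were well above background, and every EXO-HP array was lower than every EXO-STD array.

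After normalisation, the log2 signals of this probe were -4.66, -4.38 and -4.15 in EXO-HP, against -1.88 and -2.83 in EXO-STD. The group means were -4.40 ± 0.26 (SD, n = 3) in EXO-HP and -2.35 ± 0.67 (SD, n = 2) in EXO-STD, a log2 fold change of -2.04 ± 0.34 (SE). EXO-STD replicate 1 was the highest array, EXO-STD replicate 2 came next, and EXO-HP replicate 1 was the lowest. The gap between the groups, 1.32 on the log2 scale, was wider than the range within EXO-HP (0.51) and within EXO-STD (0.94). Taken pair by pair, an EXO-HP array was 2.50-fold to 6.88-fold lower than an EXO-STD array, and the EXO-STD arrays differed 1.92-fold from each other.

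Over the tested probes, the groups did not overlap for 17.8% in either direction and for 881 (2.76%) in the direction of Ak4, and 23 probes (0.072%), Ak4 included, had a log2 fold change at or below that of Ak4. Under other processing or without 1 array, its rank from the lowest fold change varied. It ran from 10 (probes well above background on all 5 arrays) to 162 (without EXO-STD replicate 1). These shares and ranks describe where Ak4 lies and do not test it, since it was chosen from this contrast. On slide 1 alone, the difference between EXO-HP replicate 1 and the mean of the EXO-STD replicates was -2.31. In bulk RNA, fewer cells that express a gene and less RNA per cell cannot be told apart.

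The second Ak4 probe did not give a comparison. At position 674, the processed signals were 61.7, 15.2 and 12.0 in EXO-HP replicates 1 to 3, against 16.9 and 12.0 in EXO-STD replicates 1 and 2. It was well above background on EXO-HP replicate 1 only, was left out of the fit by the filter on dim probes, and gives no fold because the bound against the detection limit was under 1. EXO-HP replicate 1, the array on which it was detected, was the one with the lowest signal at position 3925. The array annotation lists 3 predicted transcripts for the probe at position 674 and 1 for the probe at position 3925. The fold change of Ak4 rests on 1 probe.

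**Figure D2:**
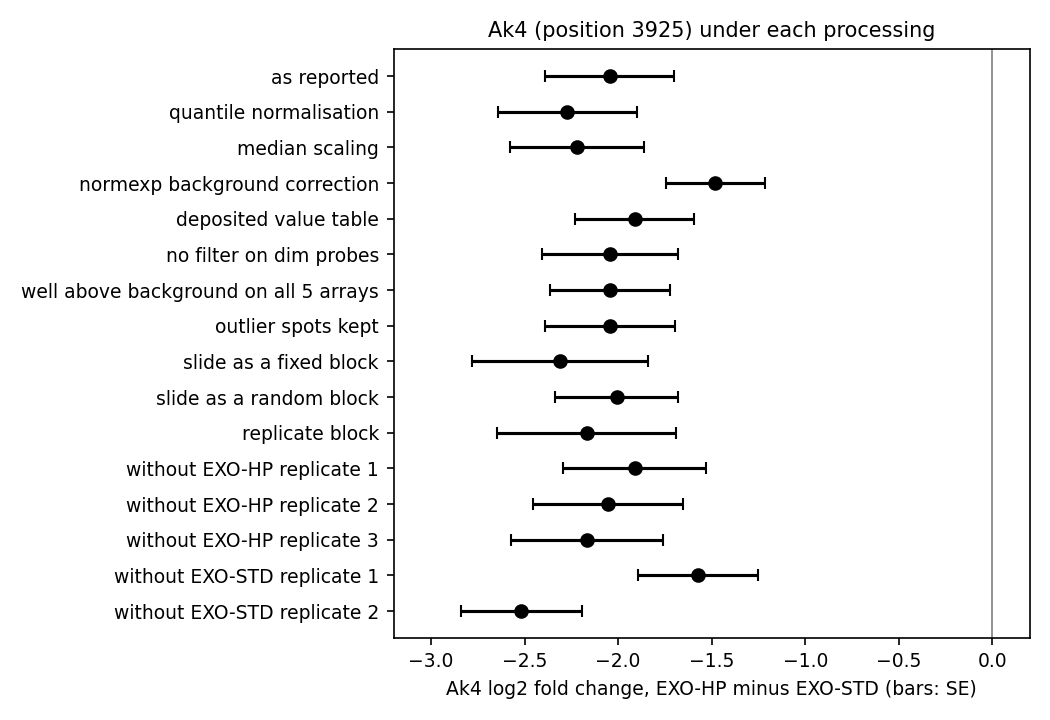
Log2 fold change of the Ak4 probe at position 3925 (x axis, EXO-HP minus EXO-STD; bars are SE) under the processing used here and each alternative (rows). All of these estimates lie below 0, between -2.52 without EXO-STD replicate 2 and -1.48 with normexp background correction.

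Ak3 is the other matrix enzyme and uses GTP in place of ATP. Its normalised log2 signals were -0.44, -0.06 and -0.34 in EXO-HP, against -0.18 and -0.33 in EXO-STD. The groups overlapped, with means of -0.28 ± 0.20 (SD, n = 3) in EXO-HP and -0.26 ± 0.11 (SD, n = 2) in EXO-STD. The log2 fold change of -0.03 ± 0.22 (SE) was smaller than the spread between arrays.

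Ak1 is the main cytosolic isoform, known for its abundance in skeletal muscle and brain. Its normalised log2 signals were 1.53, 1.95 and 1.43 in EXO-HP, against 1.76 and 1.34 in EXO-STD. The arrays of both groups overlapped, and the log2 fold change was 0.09 ± 0.26 (SE). Since the vesicles came from muscle, skeletal muscle markers were read on the same arrays: of 15, 12, 13 and 11 were well above background on EXO-HP replicates 1 to 3, against 10 and 8 on EXO-STD replicates 1 and 2. Of the 11 that were tested, Mylpf, Ckm and Mb passed the filter on dim probes only through EXO-HP, which favours a positive fold change. No count or median over all 11 is therefore given. The 8 detected on every array had a positive log2 fold change, while 37.2% of all tested probes lay below 0. Of these 8, Atp2a1 and Actn3 had all 3 EXO-HP arrays higher, as had 15.1% of all tested probes. The groups of the others overlapped, as for Tnnc2, at -1.12, -2.93 and -3.31 in EXO-HP, against -2.78 and -2.70 in EXO-STD. Myh1, Myh4, Ttn and Myl1, which encode fast myosin chains and titin, were too dim to be tested. The part of muscle RNA in the Ak1 signal was not tested.

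Ak5, a cytosolic isoform best known from brain, had log2 signals of -1.93, -1.69 and -1.56 in EXO-HP, against -1.71 and -1.81 in EXO-STD. Here too the arrays overlapped, and the log2 fold change was 0.03 ± 0.21 (SE). Of 6 alpha and delta cell markers, Gcg, Sst and Irx2 were tested. Gcg, the glucagon gene, had 5.02, 5.52 and 5.43 in EXO-HP, against 5.36 and 5.25 in EXO-STD. Sst, the somatostatin gene, had -4.81, -4.64 and -4.74 in EXO-HP, against -5.46 and -5.05 in EXO-STD. Irx2, read by 2 tested probes, stood at -0.17 ± 0.23 (SE) on the brighter probe, where the groups overlapped, and at 0.62 on the other. Ak5, Gcg and the brighter Irx2 probe were each lowest on EXO-HP replicate 1, as were Ak3 and Ak6, but not Ak1 or Ak8. Sst was higher on all 3 EXO-HP arrays, as were 15.1% of all tested probes. The part of other endocrine cells in the Ak5 signal was not tested.

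Ak7, an isoform of motile cilia and sperm tails, had processed signals of 8.49, 7.92 and 8.72 in EXO-HP, against 5.24 and 30.6 in EXO-STD. None of these spots was well above background, so no fold is given. Of 7 ciliated cell markers, 6 were tested, Ccdc39 only through EXO-HP, and Dnah5, a dynein heavy chain of cilia, was not. Of the 5 detected on every array, 3 had a positive and 2 a negative log2 fold change, while 37.2% of all tested probes lay below 0.

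Ak6 and Ak8 were not part of the chosen set and were tested in the same fit. Ak6, which the array lists under the overlapping gene Taf9, had a log2 fold change of -0.00 ± 0.19 (SE; 95% interval -0.48 to 0.47). The signal of this probe cannot be assigned to Ak6 or Taf9 alone. Ak8, listed under an older clone name and spotted 10 times per array, had 0.20 ± 0.25 (SE; 95% interval -0.42 to 0.82). Neither passed the test (limma, adjusted p = 1.00 for each), and the intervals leave room for differences of up to 0.82 on the log2 scale. Ak9 was not analysed here.

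**Figure D3:**
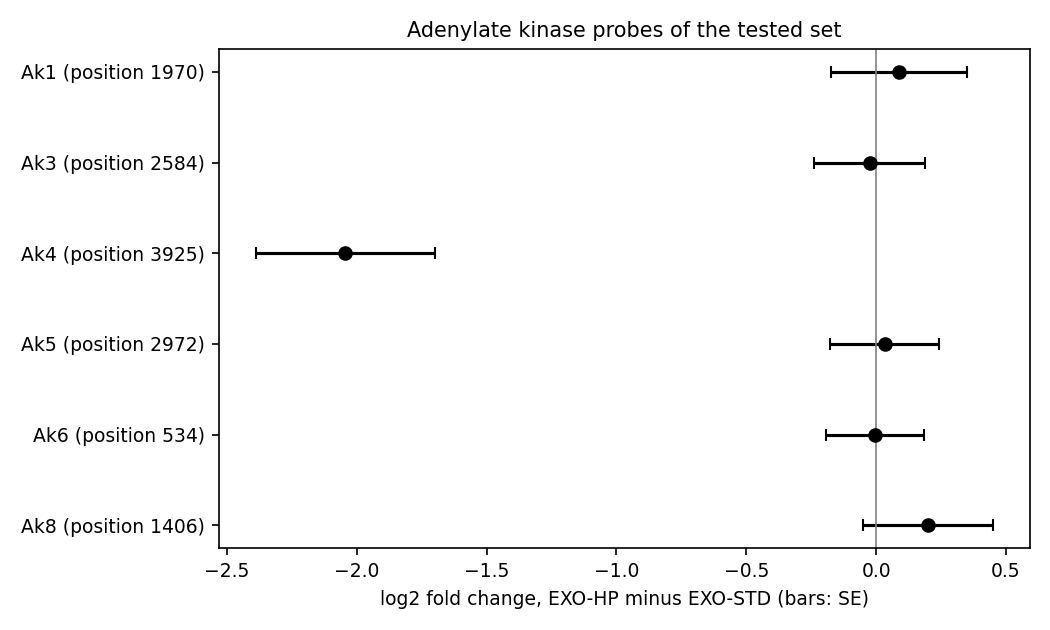
Log2 fold change (x axis, EXO-HP minus EXO-STD; bars are SE) of the tested adenylate kinase probes described here, with their transcript positions. The Ak4 probe lies at -2.04, and the other 5 probes lie between -0.03 and 0.20.

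Genes with a profile like that of Ak4 were ranked by the root mean square difference between profiles over the 5 arrays, each centred on its own mean, among 16640 named genes. The closest was Slc26a5, which encodes the motor protein prestin of cochlear hair cells, at 0.33 on the log2 scale, followed by the transcribed pseudogene Gm13315 at 0.35. Lox, the enzyme that cross-links collagen, followed at 0.38, Ldha, the A subunit of lactate dehydrogenase, was at 0.39, and Slc16a3, the lactate exporter, was at 0.41. Likeness over 5 arrays is a description, and it favours genes with a drop of similar size.

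Slc26a5 had log2 signals of -6.98, -6.19 and -5.97 in EXO-HP, against -3.22 and -4.39 in EXO-STD. Ldha had 1.30, 2.33 and 1.96 in EXO-HP, against 4.67 and 2.81 in EXO-STD. Slc16a3 had -0.73, -0.06 and -0.19 in EXO-HP, against 1.54 and 0.36 in EXO-STD. In Ldha and Slc16a3, as in Ak4, EXO-STD replicate 1 was the highest array and EXO-HP replicate 1 the lowest. Slc26a5 had the same order, but was well above background on 2 of 3 EXO-HP arrays. Lox differed from them in that its EXO-STD arrays were nearly equal, at -5.10 and -5.02, against -7.92, -7.34 and -6.95 in EXO-HP, where it was well above background on 1 of 3 arrays.

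Since Ak4 is itself a hypoxia-induced gene, 24 others were set beside it, of which 20 were tested. In EXO-HP, 19 of the 20 had a log2 fold change below 0 on their brightest probe, with a median of -0.38. Of all tested probes, 37.2% lay below 0. None passed the adjusted threshold in limma, where the lowest adjusted p was 0.884. Before adjustment, 5 were under 0.05, namely Ldha, Bnip3, Slc16a3, Pdk1 and Pfkfb3, all lower, beside 76 of all tested probes (0.238%). Without EXO-STD replicate 1, 16 of the 20 were below 0 and the median was -0.12. This list was chosen with earlier results of these arrays known, so that its direction is no independent evidence.

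By array, the median hypoxia-induced gene differed from the EXO-STD mean by -0.48, -0.26 and -0.49 in EXO-HP replicates 1 to 3, against 0.29 and -0.29 in EXO-STD replicates 1 and 2. This median of EXO-STD replicate 2 lay within the range of the EXO-HP medians. For 7 of the 20 genes, every EXO-HP array lay below both EXO-STD arrays, as for Ak4 and for 2.76% of all tested probes. They were Ldha, Slc16a3, Bnip3, Pdk1, Pfkfb3, P4ha1 and Pgam1, from a list chosen with earlier results of these arrays known. Ak4 itself differed from the EXO-STD mean by -2.31, -2.03 and -1.80 in EXO-HP replicates 1 to 3. Bnip3, a mitochondrial protein of mitophagy, had a log2 fold change of -0.92 ± 0.27 (SE). Pdk1, a kinase that inhibits pyruvate dehydrogenase, had -0.71 ± 0.26, and Pfkfb3, an activator of glycolysis, -0.71 ± 0.26. Ldha stood at -1.88 ± 0.61 on its brightest probe, and its 3 tested probes ran from -2.12 to -1.40. Among the others with several probes, those of Bnip3 ran from -1.07 to -0.37 and those of Pfkfb3 from -0.71 to -0.22. Those of Vegfa ran from -0.18 to 0.15 and the 7 of Gapdh from -0.14 to 0.05, so both genes had probes on either side of 0.

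**Figure D4:**
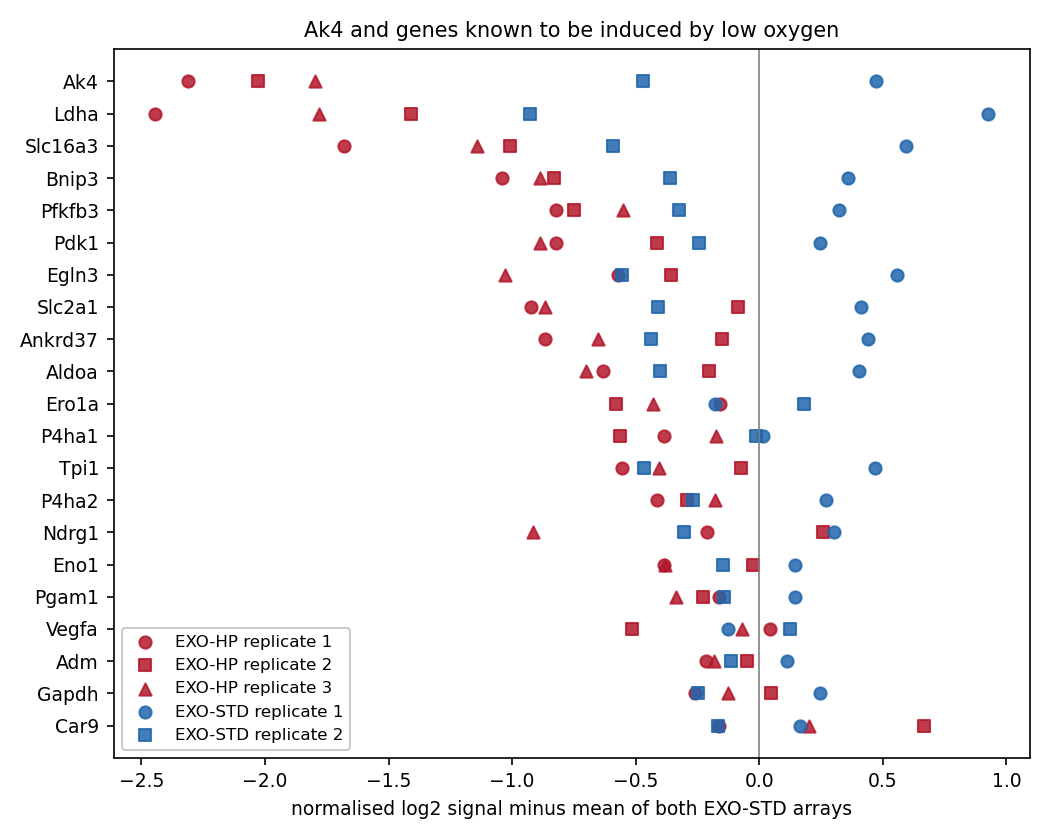
Normalised log2 signal minus the EXO-STD mean (x axis) of Ak4 and the tested hypoxia-induced genes (rows); points are single arrays of EXO-HP and EXO-STD. Ak4 lies at -2.31, -2.03 and -1.80 on the EXO-HP arrays, and Ldha shows the widest gap between its EXO-STD arrays.

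Of the forms of the hypoxia response element core, only ACGTG, on either strand, was searched in RefSeq promoter windows of 300 bases around gene starts (GRCm38.p6). It occurred in 19.6% of all 32851 windows, and in 1 of the 4 windows of Ak4. That match, with the motif and its reverse complement overlapping in capitals, lies at chr4:101419479-101419503 on the plus strand.
Ak4 promoter match: ccactctgccCACGTGcggggaccg
Of the other isoforms, Ak1 held a match in 1 of 4 windows, and Ak3, Ak6, Ak7 and Ak8 held none in 1 window each. Ak5 had no window and was not searched. A match is no evidence of binding.

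Genes that share the adenine nucleotide pool with the adenylate kinases did not pass the test in any of 5 lists. Of 12 AMP and adenosine enzymes tested, of 16 listed, 6 had a positive and 6 a negative log2 fold change, with a median of 0.00 (limma, smallest adjusted p = 0.908). Nt5c1a, a nucleotidase that turns AMP into adenosine, stood at 0.70 ± 0.30 (SE) with all 3 EXO-HP arrays higher. With slide as a fixed block in the fit it stood at 0.24 ± 0.30 (SE). Adss, which starts the branch of purine synthesis towards AMP, stood at -0.28 ± 0.19 with all 3 EXO-HP arrays lower, and Ada, the adenosine deaminase, at -0.28 ± 0.24. Non-overlap was more common with EXO-HP higher, at 15.1% of the tested probes, than with EXO-HP lower, at 2.76%.

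The 12 nucleoside phosphate kinases, which act on other nucleotides, were 4 above and 8 below 0 with a median of -0.07. Uck1, a uridine and cytidine kinase, stood at 0.57 ± 0.30 (SE), Cmpk2, a mitochondrial kinase of pyrimidine monophosphates, at -0.19 ± 0.21 on its brighter probe and 0.36 on the other, and Nme6, of the nucleoside diphosphate kinase family, at -0.12 ± 0.29. None of the 12 passed (limma, smallest adjusted p = 0.956).

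AMP-activated protein kinase is the sensor downstream of AMP. All 9 genes for its subunits and upstream kinases had a positive log2 fold change, while 37.2% of all tested probes lay below 0. Their median was 0.15 beside 0.07 over all tested probes, and none passed (limma, smallest adjusted p = 1.00). Prkag3 stood at 0.28 ± 0.22 (SE), Prkaa2 at 0.20 ± 0.23 and Prkab2 at 0.16 ± 0.21, with overlapping groups in each. The sign of all 3 turned under at least 1 other processing or without 1 array.

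The 4 creatine kinases, which buffer ATP in parallel with the adenylate kinases, did not pass (limma, smallest adjusted p = 1.00). Ckmt1 stood at 0.21 ± 0.21 (SE) and Ckb at 0.19 ± 0.26. Ckm and Ckmt2 passed the filter on dim probes only through EXO-HP; Ckmt2, at 0.51 ± 0.91, was well above background on 2 of 3 EXO-HP and 1 of 2 EXO-STD arrays. Of the 6 carriers of adenine nucleotides across the inner mitochondrial membrane, 5 were well above background on every array, with 2 above and 3 below 0, and none passed (limma, smallest adjusted p = 0.956). Slc25a23 and Slc25a25, carriers of ATP-magnesium against phosphate, stood at 0.45 ± 0.24 and 0.21 ± 0.19. All 3 EXO-HP arrays were higher in both, as for 15.1% of all tested probes. With slide as a fixed block in the fit, they stood at 0.22 ± 0.32 and 0.13 ± 0.28 (SE). Slc25a31, the ADP/ATP carrier best known from testis, was not well above background on any EXO-STD array. It passed the filter only through EXO-HP, which favours a positive fold change. Its groups overlapped, with log2 signals of -6.69, -4.97 and -6.12 in EXO-HP, against -6.52 and -6.03 in EXO-STD. The log2 fold change was 0.35 ± 0.53 (SE). Each EXO-STD level was raised to the detection limit of its array where that was higher. The EXO-HP mean was 1.26-fold the mean of these levels, which is no minimum for an increase.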

How the data were processed

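RNA of 5 MIN6 samples was hybridised to 1-colour arrays. The deposited scanner tables hold spot intensity values that, per the file headers, were background-subtracted by Feature Extraction 10.7.3.1 and not scaled between arrays. The submitters' processing notes name Feature Extraction 9.1 and limma, without saying what limma was used for. The deposited value table of the series holds log2 values with a median of 8.03 to 8.04 on each array and the same rank order as signal minus local background. It was used as an alternative; its columns matched all samples and 0 were left unmatched.

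Processed intensity was turned into log2, dropping outlier spots, averaging repeat spots of a probe and setting the 75th percentile of every array to 0. Probes lacking a usable spot on an array (110) or below the filter (well above background on 2 or more arrays within a group; 7374) were dropped, leaving 31945. No spot was saturated. The contrast was fitted in R 4.3.3 with limma 3.58.1 (lmFit, eBayes, EXO-HP minus EXO-STD, no covariate, 3 residual and 2.59 prior degrees of freedom) and adjusted by Benjamini-Hochberg over these probes at 0.05. With 3 and 2 arrays, the smallest 2-sided p of an exact rank-sum test is 0.2. A gene with several probes is given by its brightest one. For a probe undetected throughout a group, its level there was raised to the faintest detected signal of the array where that was higher, and the fold is a bound for this processing. RefSeq tables (GRCm38.p6) named 26055 probes (66.1%) and gave the promoter windows; coordinates of probes are those of the array design on mm9.

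The members and all lists were chosen with earlier results of these data known. Named are all members, Ak6 and Ak8, the 3 genes of smallest unadjusted p in each list, and the 5 genes most like Ak4; Pdk1 and Pfkfb3 were named after their values were seen. Marker lists covered beta, skeletal muscle, alpha and delta, acinar, fibroblast and ciliated cells; of the acinar list 4 of 6 and of the fibroblast list 5 of 7 were tested, Cpa1, Dcn and Lum only through EXO-HP, and 0 of either list passed in limma (0 and 1 at an unadjusted p under 0.05). A further item is not reported here. The fit was tested on simulated data. Alternatives changed the normalisation, background correction, source table, filters, slide, replicate block and single arrays.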

Additional observations from a re-analysis of the deposited data

How the results depend on the processing

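The log2 fold change of Ak4 stayed below 0 under the 15 alternatives that used its probe at position 3925. It was -1.48 with normexp background correction and ranged from -2.52 without EXO-STD replicate 2 to -1.57 without EXO-STD replicate 1 when single arrays were left out; with the probe at position 674, which was dim on 4 of 5 arrays, it was 0.72. With limma, 0 probes passed in every alternative except without EXO-STD replicate 1, where 3 did (0 to 3 when single arrays were left out); there the lone EXO-STD array was assumed to vary like the others, the 3 probes of Btbd10, Polr1e and LOC100048394 were higher in EXO-HP, and the cause was not tested. Median scaling moved the median of all tested probes to -0.10, against 0.07 as reported. The fold changes of Ak1, Ak3 and Ak5 were near 0 and changed sign, for causes that were not tested. Ak1 gave -0.088 with median scaling and -0.015 with slide as a fixed block, and -0.13 to 0.30 without single arrays. Ak3 gave 0.074 with normexp and 0.053 from the deposited table, and -0.14 to 0.055 without single arrays. Ak5 gave -0.035 with quantile normalisation, -0.14 with median scaling, -0.047 with normexp, -0.11 from the deposited table and -0.17 with slide as a fixed block, and -0.052 to 0.13 without single arrays. With slide as a fixed block, Nt5c1a fell to 0.24, Uck1 to 0.14 and Slc25a23 to 0.22. Of 20 named genes outside the chosen set, 11 kept the sign of the reported probe throughout, though the other tested probe of Cmpk2 gave 0.36. The other 9 did not: with quantile normalisation, Slc25a31 gave -0.11, Ak8 -0.18 and Prkaa2 -0.18; from the deposited table, Ak8 gave -0.14, Prkag3 -0.037 and Prkaa2 -0.095; with slide as a fixed block, Slc25a31 gave -0.41 and Ckmt2 -0.87; with slide as a random block Ak6 gave 0.0082, and with median scaling Prkab2 gave -0.020. Without single arrays, Nme6 ranged from -0.50 to 0.27, Slc25a31 from -0.13 to 0.73, Ak8 from -0.078 to 0.48, Ak6 from -0.051 to 0.042, Prkaa2 from -0.018 to 0.41, Prkab2 from -0.0032 to 0.31, Ckb from -0.054 to 0.43 and Ckmt2 from -0.45 to 1.46. With the replicate block, Ak4 stood at -2.17, Ak3 at 0.0061 and Ak5 at -0.052, and 0 probes passed; deviations of same-numbered arrays correlated at 0.025 and -0.056, so the 2 shared numbers are not shown to pair the samples. Ak7 and the second Ak4 probe were too dim for a comparison, and signal over background limits what can be said of both.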
